A study of Homo sapiens with 6 samples.

Results

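The baseline transcriptome of unedited H1 cells was described from 2 libraries, wild type 1 and wild type 2, of the 6 in the series. H1 is an established human embryonic stem cell line of the primed kind. The other 4 libraries came from H1 cells edited with CRISPR-Cas9 to carry the S1344L change in DICER1, the enzyme that cuts microRNA precursors, as 2 hemizygous and 2 homozygous samples. The wild-type cells carry no edit by their labels, and the libraries were chosen by that label alone, so no expression value entered the choice. Nothing in the sample descriptions tells if replicates were grown as distinct cultures or derived from different clones, so any spread between libraries may be technical. Over the 16199 genes of the table wild type 1 held 52924532 counts and wild type 2 held 38164848, and the edited libraries held 39565897 to 51598026.

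Primed human embryonic stem cells resemble the epiblast of the implanted embryo. They hold the transcription factors POU5F1 (OCT4), SOX2 and NANOG, divide quickly, and depend on FGF and activin or Nodal signals, while genes of the germ layers stay low until differentiation starts. They also keep let-7 microRNAs low through the RNA-binding protein LIN28A, which blocks processing of the let-7 precursor before DICER1 can cut it.

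Expression is given in CPM, a gene's counts scaled to a common total of the library's listed counts, and between genes only as a level per length, CPM per kb of annotated exon (called level below). A length was found for 15913 genes, and their median level was 4.17 in wild type 1 and 4.32 in wild type 2. The highest 10% of genes began at levels of 26.4 and 27.0, and the highest 1% at 159 and 167. The threshold of 10 used for lists of genes was reached in both libraries by 26.1% of genes, a level of 1 by 76.6% and a level of 30 by 7.66%. Of 228 genes in the 15 lists described below 146 were in the table, and 67 of them reached 10 in both libraries, 117 reached 1 and 33 reached 30. Every gene in the table has at least 0.586 CPM in 3 or more of the 6 libraries, so a gene of a list that has no row was not analysed here, and such genes are named without a value.

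The 5 markers of human embryonic stem cells were all present. DNMT3B, a de novo DNA methyltransferase (chromosome 20, 32762385 to 32809356, GRCh38), had levels of 519 and 477 and ranked 46 of the 15913 genes. LIN28A (chromosome 1, 26410778 to 26429722) had levels of 398 and 542 and ranked 49. SOX2 (chromosome 3, 181711924 to 181714436) had levels of 133 and 154 and ranked 196. DNMT3B and LIN28A thus stood in the highest 1% of genes by level. NANOG (chromosome 12, 7787794 to 7799141) had levels of 36 and 27.1 and ranked 1273, and POU5F1 (chromosome 6, 31164337 to 31180731) had levels of 29.8 and 31.1 and ranked 1336. Each marker differed by less than 1.5-fold between the libraries.

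The POU5F1 value has a limit of its own. POU5F1 has near-identical copies elsewhere in the genome, and counts were spread over them. In wild type 1, 4561 counts were listed for POU5F1, 4381 for POU5F1B, 4128 for POU5F1P3 and 398 for POU5F1P4, and in wild type 2 the counts were 3440, 3337, 3035 and 328. POU5F1 itself held 33.9% of the sum in both wild-type libraries, and 34.8% and 35.7% in hemizygous and 33.5% and 36.8% in homozygous libraries. The copies took a similar portion in all 6. POU5F1 also lies in a stretch of chromosome 6 (chosen after its values were seen) where 13 of 181 annotated protein-coding genes were listed (7.18%), against 13263 of 19788 elsewhere (67.0%). Those 13 genes had a median level of 0.572, against 5.29 for the other listed protein-coding genes. BRD2, a chromatin reader expressed in most cells, had levels of 0.216 and 0.271 there, and DAXX, a histone chaperone, 0.214 and 0.263. How reads were assigned in that stretch was not tested, so the rank of POU5F1 among other genes is not firm.

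Core pluripotency genes were high as a group, in a list that, like the other lists, was chosen with earlier results of these data known. All 29 genes of the list were in the table, and 24 of them had a level of at least 10 in both libraries, with a median of 46.5, against 26.1% of all genes. ESRG, a primate noncoding RNA driven by an endogenous retrovirus, led with 668 and 761. PODXL, the sialomucin that carries the TRA-1 stem cell antigens, followed DNMT3B and LIN28A with 354 and 337. DPPA4, a chromatin protein of pluripotent cells, had 290.1 and 264, and TDGF1, a Nodal co-receptor, 243 and 217. In these cells the 4 genes ranked 29, 67, 88 and 109. L1TD1, an RNA-binding protein of transposon origin, had levels of 205.1 and 192.7, and the telomere protein gene TERF1 82.8 and 85.4. TERT, the telomerase reverse transcriptase, had 5.07 and 8.47. The lowest member was LEFTY2, a secreted Nodal inhibitor, at 5.96 and 2.41. LEFTY1, NODAL and FOXH1, the DNA-binding partner of SMAD2, share 46.6%, 41.2% and 31.6% of their exon bases with another gene, so part of their counts cannot be assigned, since this kit, as generally known, does not mark strand.

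Genes of the primed state were high and genes of the naive state were low or not listed. All 18 primed genes were in the table and 15 reached a level of 10 in both libraries, with a median of 40.6. Of all genes 26.1% reached it. CD24, a surface sialoglycoprotein, had levels of 560.1 and 621, SFRP2, a secreted WNT modulator, 136 and 212, and ZIC2, a zinc-finger factor, 73.6 and 89.1. THY1, a surface protein that separates primed from naive cells, had 69.5 and 81. OTX2, a factor of the primed epiblast, was the lowest at 3.79 and 3.76. Of 21 naive genes 10 were in the table and 1, TFAP2C, reached 10 in both libraries, at 13.1 and 14.3. The other listed naive genes included FGF4 with 5.3 and 5.39, DPPA5 with 4.68 and 12.1, TFCP2L1 with 2.68 and 2.08 and SUSD2, the lowest, with 0.702 and 0.893. DPPA3, a maternal factor, had 1.17 and 0.801. KLF17, DNMT3L, KHDC1L, ARGFX, NLRP7, ALPP, HORMAD1, ZFP57, OLAH, TRIM60 and KHDC3L were not analysed here.

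Markers of differentiated lineages were few in the table and mostly under the threshold. For comparison, 67.0% of annotated protein-coding genes outside the chromosome 6 stretch around POU5F1 had a row. The threshold of 10 was reached in both libraries by 26.1% of all genes, so a count of 0 among 3 to 5 listed members says little about a list. Of 12 definitive endoderm markers 3 were listed and 0 reached 10, AFP at 1.21 and 0.233, CXCR4 at 0.952 and 0.412 and HHEX at 0.801 and 0.384, and SOX17, FOXA2, GATA4 and GATA6, the defining factors, had no row. Of 12 primitive streak markers 5 were listed and 0 reached 10. FGF8, the highest, had 4.24 and 2.47, and MIXL1, a homeobox factor of the streak, 1.48 and 0.62, while TBXT and EOMES had no row. Of 14 trophoblast and amnion markers 4 were listed and 0 reached 10, with GABRP the highest at 1.75 and 3.11 and CDX2 and GATA3 without a row. The summed level of the listed members was 2.96 and 1.03 for endoderm, 7.51 and 5.85 for primitive streak and 4.89 and 6.81 for trophoblast and amnion, against 3677 and 3801 for core pluripotency. These sums cover 3, 5 and 4 members against 29, so they are not like for like. The median levels were 0.682, 1.05 and 1.57, against 46.5. In a bulk library a low level may come from a few differentiated cells or from a little RNA in every cell, and these cannot be told apart.

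Other lineage lists held a few genes with a clear level. Of all genes 26.1% reached 10 in both libraries. Of 12 neural ectoderm markers 4 were listed: NES, an intermediate filament also found in stem cells, had 83.2 and 79.1, SOX3, a relative of SOX2, 10.3 and 11.2, and ZIC1 2.58 and 2.46, while PAX6 and SOX1 had no row. Of 12 neuron markers 8 were listed and only GAP43, a growth cone protein, reached 10, at 15 and 11.8. DCX, a microtubule protein of migrating neurons, was the lowest at 0.315 and 0.331. Of 9 neural crest markers 3 were listed, FOXD3, which also acts in pluripotent cells, at 10.8 and 16.4, ETS1 at 14.7 and 7.26 and SOX10 at 1.19 and 1.5. Of 12 mesoderm markers 4 were listed and KDR, the VEGF receptor, stood apart at 38.4 and 43, with PDGFRA at 0.116 and 0.0915. Of 11 germ cell markers 6 were listed, with KIT, a receptor tyrosine kinase, at 13.4 and 12.3 and the other 5 under 2 in both libraries. Of 13 fibroblast and mesenchyme markers 10 were listed and 4 reached 10, namely THY1, which is also a stem cell surface protein, TAGLN, an actin-binding protein (46.8 and 16.5), COL1A1 (28.4 and 19.2) and COL1A2 (12.3 and 11.3), both chains of type I collagen. DCN, LUM and COL3A1, 3 further defining fibroblast genes, had no row. The summed level of the fibroblast list was 173 and 144.

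**Figure D1:**
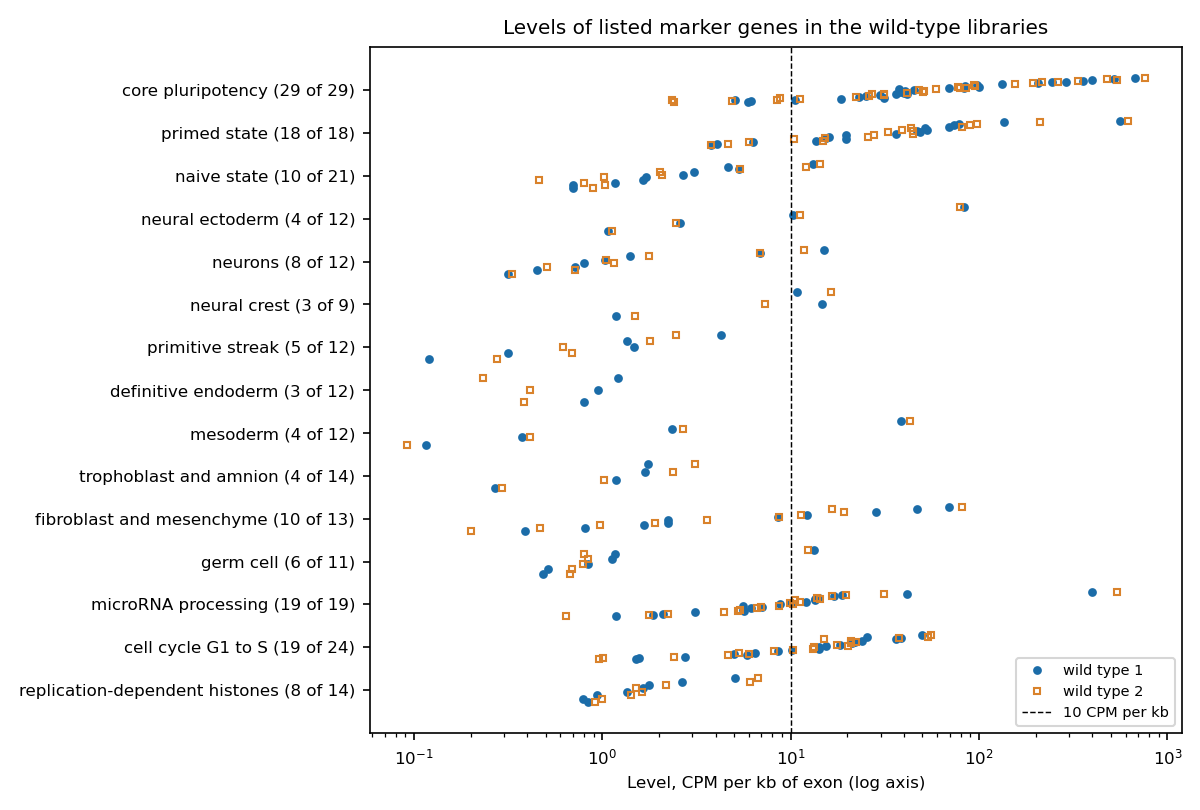
Levels of the listed members of 15 gene lists in wild type 1 (filled circles) and wild type 2 (open squares), in CPM per kb of exon on a log axis. The numbers beside each name give members in the table of members chosen. The dashed line marks 10, which 24 of 29 core pluripotency genes, 0 of 3 endoderm genes and 26.1% of all genes reached in both libraries.

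The most abundant transcripts came from the mitochondrial genome and from translation. The mitochondrial genome took 7.32% and 6.72% of the counts. By level, 13 of the 20 highest genes with a symbol were mitochondrial, led by MT-CO2 at 12866 and 11597, MT-CO1 at 12049.5 and 10000.4 and MT-CO3 at 12196 and 9019, the catalytic core of cytochrome c oxidase, and MTATP6P1, a nuclear copy of mitochondrial sequence, was also among them. The large mitochondrial ribosomal RNA MT-RNR2 was the one of these that differed most between the libraries, at 5162 and 8258 CPM. Among nuclear genes the translation elongation factor EEF1A1 led at 1714 and 1580.2, followed by FTL, the ferritin light chain, at 1552 and 1306, cytoplasmic actin ACTG1 at 1155 and 1314 and the chaperone HSP90AB1 at 1181 and 1251. GAPDH of glycolysis had 928 and 1222 and EEF2, another elongation factor, 858 and 1015.

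Stem-cell genes reached this top group too. Within the 20 highest nuclear genes stood HMGA1, a chromatin architecture protein, at 814 and 1056, ESRG, and MIR302CHG, the host transcript of the miR-302 and miR-367 microRNAs of embryonic stem cells, at 824 and 725. MIR302CHG shares 46.7% of its exon bases with another gene. SNHG14, the long noncoding host of the chromosome 15 small nucleolar RNAs, was high in total at 2548 and 2042 CPM but had levels of 58.8 and 47.1 over its very long exons. Counts were spread broadly: the 10 highest genes took 7.81% and 7.24%, the 100 highest 20.7% and 20.8%, and 953 genes held 50% of the mean CPM. Protein-coding genes took 96.2% and 95.7%, 1642 long noncoding genes 1.96% and 2.06%, and 843 pseudogenes 0.870% and 0.885%.

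A run of pyrimidines (C or T) at an annotated start was more frequent among the highest genes than among all genes. Messages of ribosomal proteins and elongation factors carry a 5′ terminal oligopyrimidine, or TOP, motif, a C at the first base followed by pyrimidines, through which mTOR controls their translation. The stretches from 40 bases before to 30 bases from the annotated start are shown for 5 high genes with such a run and 4 genes without one, to let the starts be compared. They are RefSeq sequences of the coding strand of build GRCh38.p14, and capitals mark the pyrimidine run that begins within 2 bases of the start, or a TATAAA box:
EEF1A1: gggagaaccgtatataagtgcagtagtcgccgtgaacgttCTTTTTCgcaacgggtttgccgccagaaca
EEF2: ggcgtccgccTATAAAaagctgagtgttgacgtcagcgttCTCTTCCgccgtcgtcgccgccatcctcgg
RPS12: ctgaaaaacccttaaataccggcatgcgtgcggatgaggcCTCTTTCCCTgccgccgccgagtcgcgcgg
NPM1: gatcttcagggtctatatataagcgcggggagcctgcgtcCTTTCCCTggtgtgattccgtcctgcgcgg
HMGA1: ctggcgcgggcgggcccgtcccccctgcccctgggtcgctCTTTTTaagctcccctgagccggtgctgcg
ACTG1: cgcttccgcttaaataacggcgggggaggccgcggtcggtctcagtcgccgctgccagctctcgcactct
GAPDH: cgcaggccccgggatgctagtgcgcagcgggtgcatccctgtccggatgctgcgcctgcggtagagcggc
DNMT3B: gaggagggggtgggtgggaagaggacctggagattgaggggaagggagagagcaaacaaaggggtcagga
SOX2: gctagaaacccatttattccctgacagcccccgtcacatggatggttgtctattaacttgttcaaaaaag

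These lie at chr6:73521003-73521072 (minus strand) for EEF1A1, chr19:3985434-3985503 (minus) for EEF2, chr6:132814529-132814598 (plus) for RPS12, chr5:171387809-171387878 (plus) for NPM1 and chr6:34236833-34236902 (plus) for HMGA1. The others lie at chr17:81512770-81512839 (minus) for ACTG1, chr12:6535224-6535293 (plus) for GAPDH, chr20:32779812-32779881 (plus) for DNMT3B and chr3:181711885-181711954 (plus) for SOX2. The RefSeq starts of DNMT3B, ACTG1, EEF1A1 and GAPDH lie inside the longer gene spans of the annotation used for lengths, so other starts of these genes are not shown. NPM1, the nucleolar protein nucleophosmin, and HMGA1 each have 2 annotated starts, of which the one with the run is shown. The search, on the coding strand, took a C within 2 bases of an annotated start followed by at least 4 C or T, at any start of a gene, and used 11399 listed genes with a RefSeq promoter. Of all of these 16.4% held such a run. The share was 14.6% in the lowest 25% of genes by level, 16.2%, 16.3% and 16% in the next classes up to the 90th percentile, 19.9% between the 90th and 99th and 45.6% (52 of 114) in the top 1%. Of 60 ribosomal protein genes 48 held it (80%), and of the 79 other genes in the top 1%, 23 did (29.1%). A run near the start is a match of letters, not a measured start, and more annotated starts per gene give more chances of one. TATAAA, sought on the coding strand within 45 to 16 bases before the start, was held by 2.12% of all genes and by 7.89% (9 of 114) in the top 1%.

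**Figure D2:**
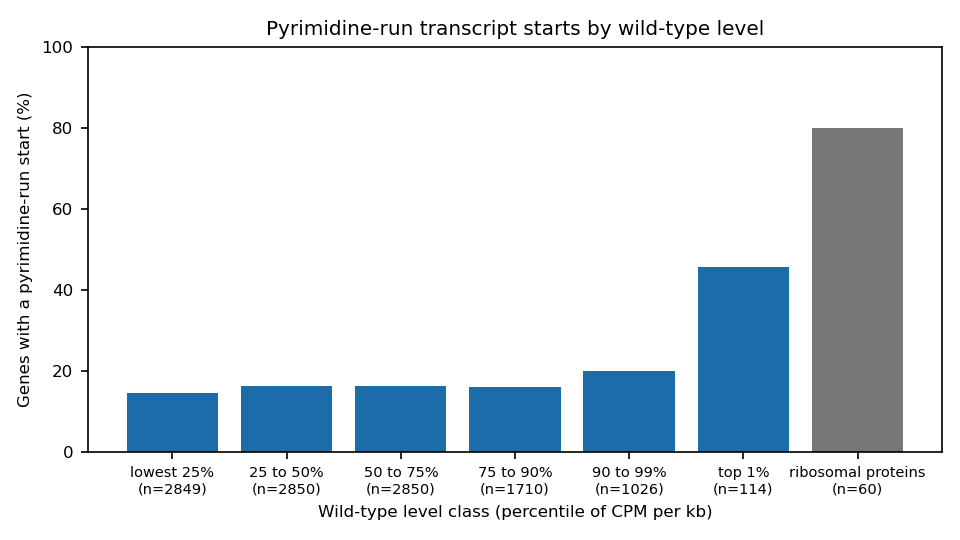
Share of genes (percent, axis from 0 to 100) with a C and at least 4 pyrimidines at an annotated start, for 6 classes of wild-type level (blue) and for ribosomal protein genes (grey), with the number of genes under each bar. The share lay between 14.6% and 19.9% in the 5 lower classes and was 45.6% in the top 1%.

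Ribosomal protein genes were high with a few exceptions. The 74 listed genes took 5.19% and 6.02% of the counts, and their median level was 197, with RPS12 the highest at 1023 and 1191. A mean level under 10 was found for 5 of them, RPS9, RPL7A, RPS10, RPL36A and RPL17. RPS9 had 0.644 and 0.647 and RPL7A 1.05 and 0.619, although these proteins are, in general, parts of every ribosome. Glycolysis genes also differed in level. TPI1 had 184 and 215, PGAM1 112 and 111, ENO1 219.6 and 257 and PKM 102 and 135, while ALDOA, an aldolase, had 4.06 and 4.92 with 53.5% of its exon bases shared with another gene. ALDOC, another aldolase, had 21.1 and 24.6. LDHB had 7.01 and 11.3 and LDHA had no row. RPS9 shared only 2.4% of its exon bases. These genes were named after their values were seen, and how reads were assigned to them was not tested, so a low level of a widely expressed gene in the table is not firm.

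Paralogues were compared by level, in families chosen for their roles in stem cells and with earlier results of these data known. Of 53 families 52 had at least 2 members in the table. The same member led in both libraries in 48 of these, by more than 2-fold over the next in both libraries in 28 and by more than 5-fold in 12. With 2 libraries no exact test of an order can reach p = 0.05, so the orders are descriptions. The lead was the same gene when lengths were taken from the longest transcript in 48 of 52 families and with no length in 46 of 52.

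**Figure D3:**
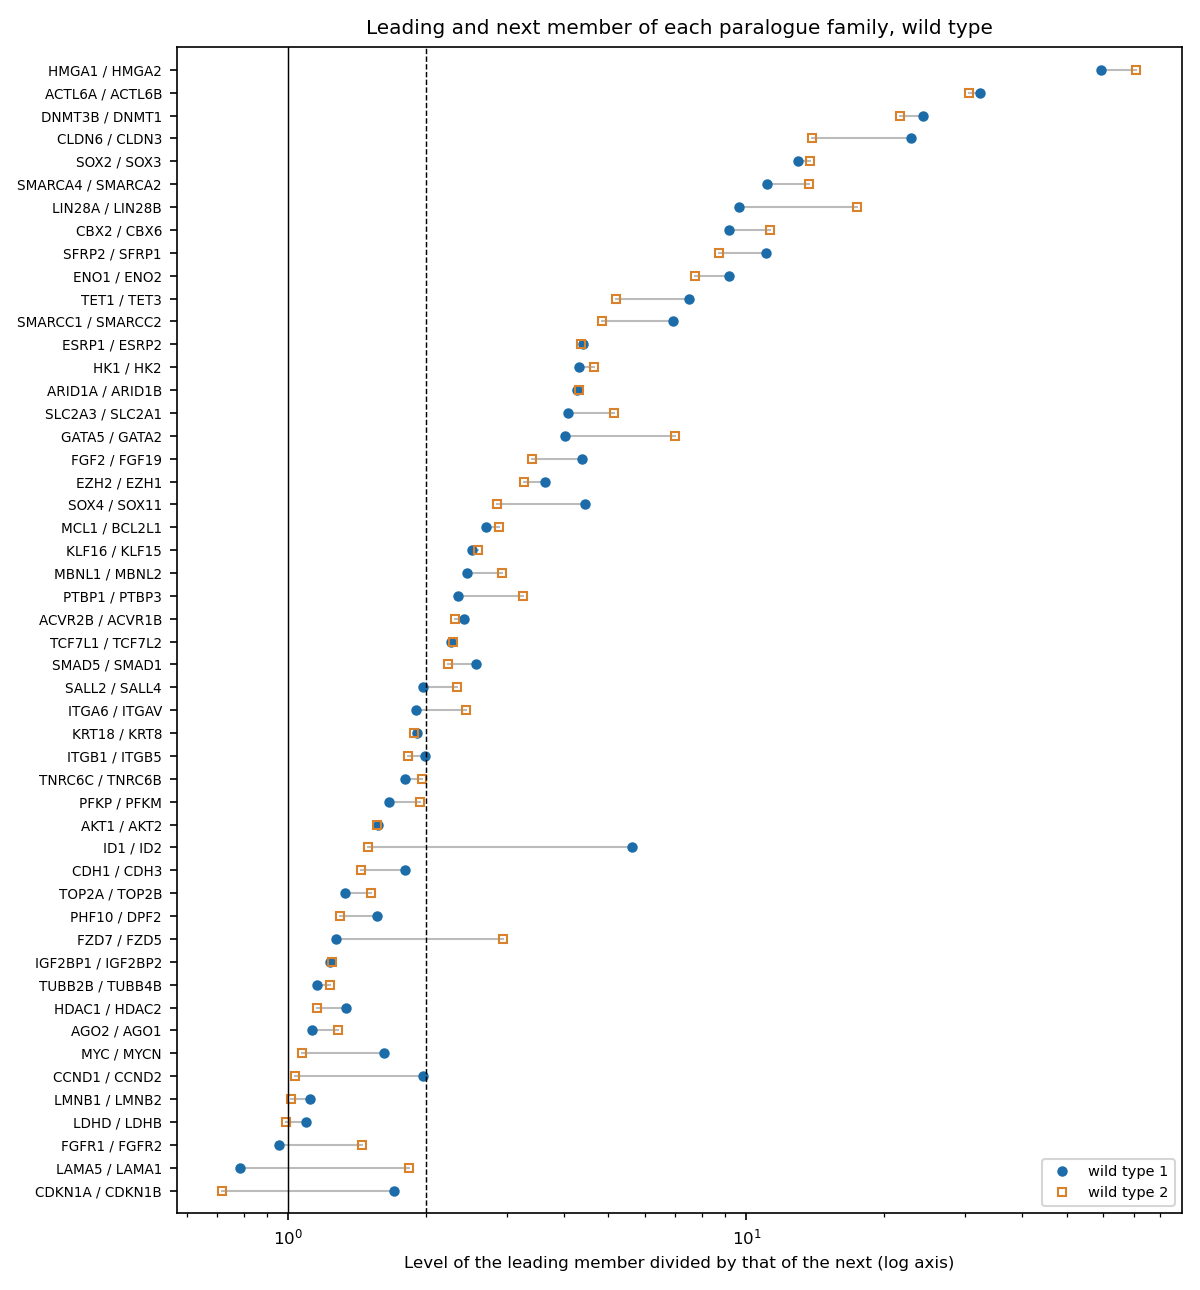
Level of the leading member divided by that of the next member in 50 of the 52 paralogue families, in wild type 1 (filled circles) and wild type 2 (open squares), on a log axis. The solid line marks equal levels and the dashed line 2-fold. HMGA1 over HMGA2 is at the top with 59.3-fold and 71.0-fold, and at the bottom are 4 families whose leading member differed between the libraries.

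Regulators of RNA and chromatin had wide gaps, some of which depended on the length used. HMGA1 had 59.3-fold and 71.0-fold the level of HMGA2 (13.7 and 14.9), a relative of fetal tissue, and 37-fold by longest transcript. LIN28A was 9.64-fold and 17.4-fold over LIN28B (41.3 and 31.1), which also keeps let-7 low. DNMT3B was 24.2-fold and 21.7-fold over DNMT1 (21.4 and 22), the maintenance methyltransferase, with DNMT3A at 12.2 and 14.4, and by longest transcript the lead over DNMT1 was 13.5-fold. TET1, which oxidises methylcytosine, led at 29.1 and 20.1 over TET3 at 3.89 and 3.86 and TET2 at 0.0768 and 0.0779. SMARCA4 (BRG1), the ATPase of the SWI/SNF remodeller of stem cells, was 11.1-fold and 13.7-fold over SMARCA2 (BRM), and ACTL6A was 32.3-fold and 30.6-fold over its neuronal counterpart ACTL6B. SMARCC1 (BAF155) was at 69.5 and 68.6 and SMARCC2 (BAF170) at 10.1 and 14.1, with a lead of 3.41-fold by longest transcript. ARID1A was 4.27-fold and 4.31-fold over ARID1B, and 1.93-fold by longest transcript. In mouse embryonic stem cells SMARCA4, SMARCC1, ARID1A and ACTL6A are the members known from the complex. EZH2, the main Polycomb methyltransferase of dividing cells, was at 20.6 and 22.5 and EZH1 at 5.65 and 6.86, and CBX2 led the Polycomb CBX genes at 24.6 and 33.3, with CBX7 at 1.95 and 3.48. HDAC1 (34.7 and 32.7) and HDAC2 (25.9 and 28.3) were close, as were TOP2A (101 and 105) and TOP2B (76.2 and 69.3).

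Among transcription factors SOX2 was 12.9-fold and 13.7-fold over SOX3. SOX4 led its group at 71.1 and 73.4, with SOX11, a factor of progenitors, at 16 and 25.7. ZIC2 was above ZIC5 (14.9 and 20.9) and ZIC4 (0.148 and 0.19). SALL2 (78.3 and 97.1) stood above SALL4 (39.9 and 41.5), the member best known in stem cells, by 1.97-fold and 2.34-fold. Among 13 listed KLF genes KLF16 led at 16.4 and 21.2, while KLF4 and KLF5, used in or tied to naive cells, were low, KLF4 at 1.71 and 1.02 and KLF5 at 3.08 and 2.03. MYC (46.1 and 43.2) led MYCN (28.5 and 40.2) by 1.62-fold in wild type 1 and 1.07-fold in wild type 2. ID1 led ID2 by 5.63-fold and 1.5-fold, with ID1 at 65.3 and 36.5 and ID2 at 11.6 and 24.4. TCF7L1, a repressor of WNT targets, led at 19.6 and 27.6 over TCF7L2 at 8.66 and 12.1, and LEF1 had no row. Of the GATA genes 2 of 6 were listed, GATA5 with 1.09 and 2.05 and GATA2 with 0.271 and 0.294.

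Signalling families differed in how clear the lead was. FGF2, which the cells are known to need, led the ligands at 53 and 38.8, ahead of FGF19 at 12.1 and 11.4 and FGF4. Of the receptors FGFR1 had 18.7 and 30.9, FGFR2 19.6 and 21.4 and FGFR4 19.8 and 20.2, so FGFR1 was the lowest of these 3 in wild type 1 and the highest in wild type 2, and FGFR3 was lower at 7.2 and 9.11. ACVR2B led the activin receptors at 13.3 and 16.2, with the type I receptor ACVR1B at 5.51 and 7.03. Among receptor SMADs SMAD5 of the BMP branch had 14.9 and 11.9, SMAD2 of the activin branch 3.0 and 3.41 and SMAD3, also of that branch, 4.93 and 4.66. FZD7 led the frizzled receptors at 46.7 and 44.7, with FZD5 at 36.8 and 15.2. SFRP2 was 11-fold and 8.71-fold over SFRP1. AKT1 was 1.57-fold and 1.56-fold over AKT2 by exon length, and below it, at 0.734-fold, by longest transcript.

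Adhesion and cytoskeleton genes included cadherins, claudins, integrins and keratins. CDH1 (E-cadherin) had 89.4 and 78.8, CDH3 49.7 and 54.6 and CDH2 (N-cadherin) 19.7 and 10.5. CLDN6, a claudin of early embryos, was 22.9-fold and 13.9-fold over CLDN3. ITGA6 led the integrin alpha chains at 35.6 and 33.6 and ITGB1 the beta chains at 127 and 76.4, a pair that together binds laminin, with ITGAV at 18.8 and 13.8 and ITGB5 at 63.7 and 41.8. The laminin chains LAMA5 (11.2 and 21.3) and LAMA1 (14.3 and 11.6) changed order between the libraries. KRT18 had 110.5 and 157 and KRT8, its partner, 57.8 and 83.2, against 1.69 and 2.38 for KRT7, and by longest transcript KRT18 was 1.21-fold over KRT8. LMNB1 had 60.6 and 61.5 and LMNB2 54.3 and 60.7, several times the 8.23 and 8.71 of LMNA, the lamin of differentiated cells. TUBB2B led the listed beta tubulins at 163 and 187, with TUBB4B at 141 and 152 and TUBB3, the neuronal one, at 1.03 and 1.05; TUBB had no row.

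In RNA processing PTBP1 (78.8 and 95.6) stood over PTBP3 (33.7 and 29.3) and the neuronal PTBP2 (4.57 and 5.13). ESRP1, an epithelial splicing factor, was 4.39-fold and 4.35-fold over ESRP2. MBNL1, a splicing factor that rises with differentiation, had 2.76 and 1.92. The 3 IGF2BP genes lay close, IGF2BP1 at 53.4 and 62.9, IGF2BP2 at 43.3 and 50.3 and IGF2BP3 at 46.9 and 44.1, and IGF2BP3 led by longest transcript. AGO2 (13.5 and 14.4) and AGO1 (12 and 11.2) led the Argonautes, with AGO4 at 5.56 and 5.38 and AGO3 at 1.87 and 1.78. TNRC6C led its family at 5.62 and 8.67.

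All 19 genes of microRNA processing were listed, 8 with a level of at least 10 in both libraries, against 26.1% of all genes. DICER1 itself had 13.5 and 10.5, DROSHA 16.9 and 16.5 and XPO5, the exporter of precursors, 18.6 and 19.6. DGCR8, the partner of DROSHA, had 6.15 and 6.66. Apart from LIN28A and LIN28B no member exceeded 20, so the machinery itself stood far below LIN28A. Of 24 genes of the G1 to S step 19 were listed and 12 reached 10, against the same 26.1%. CCND1 had 50.1 and 55.6, CDK4 38.7 and 37.7 and CCNE1 18.3 and 17.7. CDKN2A, CDKN2B, CDKN2C and CDKN1C, inhibitors of cyclin-dependent kinases, had no row, and CDKN2D had 1.56 and 1.01. Of 14 replication-dependent histone genes 8 were listed, all under 7 in both libraries, the highest being H2BC12 at 5.06 and 6.67. The mRNAs of such genes mostly lack a poly(A) tail, and the library kit, as it is generally used, selects poly(A) RNA. Its part in these low levels was not tested.

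In energy use SLC2A3, a high-affinity glucose transporter, led at 139 and 128 over SLC2A1 at 34.1 and 24.8. HK1 had 72.2 and 84.2 and HK2 16.8 and 18.1. PFKP led the phosphofructokinases at 23.6 and 31.5, and ENO1 was 9.15-fold and 7.73-fold over ENO2. MCL1, a survival protein, had 98.4 and 86.1, BCL2L1 36.4 and 29.8 with 43% of its exon bases shared, and BCL2 0.744 and 0.755.

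The libraries agreed closely for most genes, and a subset stood far apart. Across genes, which are not replicates, log2 CPM correlated with Pearson r = 0.981 and CPM with Spearman rho = 0.984. The CPM of 82.7% of genes lay within 1.5-fold. It differed by more than 2-fold for 938 of 16199 genes (5.79%), of which 297 were higher in wild type 1 (1.83%) and 641 in wild type 2 (3.96%). Between hemizygous libraries 1017 genes and between homozygous libraries 410 genes differed as much. The share over 2-fold was 19.7% under 1 CPM, 11.4% from 1 to 10, 1.62% from 10 to 100 and 0.626% at 100 CPM and over. The median absolute log2 ratio in those classes was 0.476, 0.372, 0.207 and 0.171, where counting error alone gives 0.239, 0.119, 0.0363 and 0.0161. The spread exceeded counting error in each class. The chi-square of the counts of both libraries, divided by its degrees of freedom, came to 60.3. The counts thus differed by more than sampling noise and were not copies of each other.

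Genes far higher in wild type 1 were led by COL12A1. COL12A1, a collagen of mesenchymal matrix, was at 201 and 11.2 CPM in wild type 1 and 2, an 18-fold difference. ANXA1, a membrane-binding annexin, was at 33.4 and 2.1 CPM and MYOF, a membrane repair protein, at 18.2 and 1.99. DCC, a netrin receptor, CREB5 and LHX4, both transcription factors, and ACACA, acetyl-CoA carboxylase, were also among the 8 largest ratios with a mean of at least 10 CPM. Those 8 genes were higher in replicate 1 than in replicate 2 of the hemizygous cells in 8 of 8 and of the homozygous cells in 7 of 8. Of the 8 genes with the largest ratios toward wild type 2, 5 in the hemizygous and 7 in the homozygous cells were higher in replicate 2. Any difference was counted, however small, and the share among all genes was not counted. Over all genes the deviations of same-numbered samples correlated with wild type at r = 0.741 in hemizygous and 0.357 in homozygous cells. The counts are thus not shown to be particular to these genes. COL12A1 was at 255 and 8.0 CPM in hemizygous 1 and 2, 15.7 and 11.8 in homozygous 1 and 2 and 201 and 11.2 in wild type 1 and 2. ANXA1 was at 24.9 and 1.18 CPM in hemizygous, 2.62 and 1.85 in homozygous and 33.4 and 2.1 in wild-type libraries. For COL12A1 and ANXA1 hemizygous 1 and wild type 1 were high and the other 4 libraries low. The labels do not say what replicate numbers mark.

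Some members of the lists also differed by more than 2-fold between the wild-type libraries. NODAL was at 52.7 and 14.8 CPM, LEFTY2 at 14.3 and 5.76 and LINC-ROR, a noncoding RNA of pluripotent cells, at 40.8 and 9.14. CDKN1A, an inhibitor of cyclin-dependent kinases, was at 109.9 and 45.7 CPM, TAGLN at 183 and 64.6, FZD5 at 247 and 102 and TBX3, a T-box factor, at 9.73 and 2.75. All of these were higher in wild type 1. The 3 listed endoderm markers were over 2-fold higher in wild type 1 as well, but all averaged between 1 and 10 CPM, where 11.4% of genes differed as much, AFP at 3.95 and 0.76 CPM, CXCR4 at 2.12 and 0.917 and HHEX at 2.02 and 0.969. Higher in wild type 2 were CCND2, a D-type cyclin, at 182 and 386 CPM, ID2 at 25.6 and 53.8 and DPPA5, a marker of naive cells, at 3.17 and 8.23. TDGF1 and LEFTY1, also of the Nodal pathway, were at 729.6 and 651 and at 11.7 and 9.22 CPM, within 2-fold. The core pluripotency list had 3 of 29 members over 2-fold, the primed list 0 of 18 and the microRNA list 0 of 19. The neural ectoderm, neuron, mesoderm, trophoblast and germ cell lists had 0. The primitive streak list had 3 of 5 listed members over 2-fold, endoderm 3 of 3, naive 2 of 10 and neural crest 1 of 3. The fibroblast list had 1 of 10, the G1 to S list 2 of 19 and the histone list 1 of 8. Most members of the first 3 lists lay above 10 CPM, where 1.62% (10 to 100 CPM) and 0.626% (100 CPM and over) of all genes differed as much.

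Genes higher in wild type 2 were led by EEF1B2, a translation elongation factor, at 4.59 and 66.6 CPM in wild type 1 and 2. EEF1B2 was at 3.85 and 2.62 CPM in hemizygous, 2.21 and 2.38 in homozygous and 4.59 and 66.6 in wild-type libraries, so wild type 2 alone was high. FBL, the rRNA methyltransferase fibrillarin, had the same order, at 3.02 and 1.55 CPM in hemizygous, 1.32 and 1.34 in homozygous and 3.12 and 21.1 in wild-type libraries. Both are widely expressed genes with low values here, and how reads were assigned to them was not tested. RN7SL1, the RNA of the signal recognition particle, followed with 12.2 and 94.4 CPM, and its exon bases all overlap another gene. CACNG8, a calcium channel subunit, TBC1D9B, C3, the complement component, MVP, the vault protein, and AOC3, an amine oxidase, made up the rest of the 8.

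**Figure D4:**
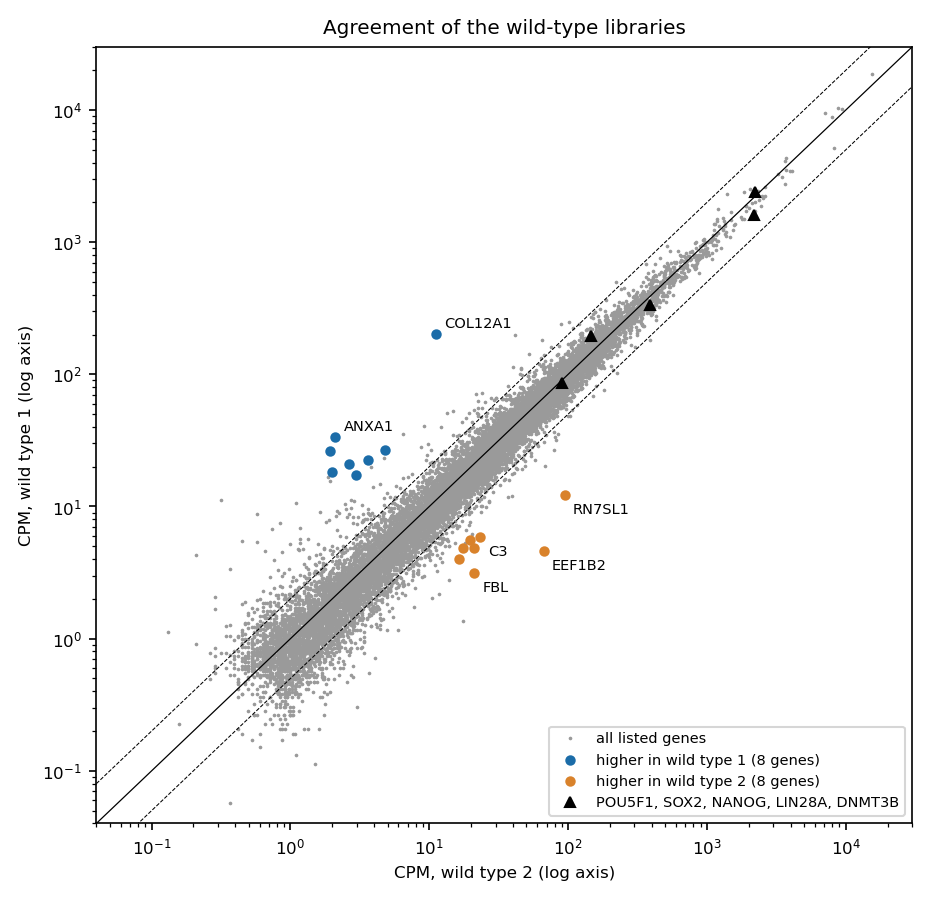
CPM of each of 16199 genes in wild type 1 (y axis) and wild type 2 (x axis), both log axes, with the line of equality and dashed lines at 2-fold. Blue and orange points are the 8 genes with the highest and lowest ratios among those with a mean of at least 10 CPM, and black triangles are the 5 stem cell markers, which lie near the line.

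The ratio of the libraries moved with the base composition of the transcript. In the 10% of genes with the lowest GC in their longest transcript (26.7% to 38.4%) the median log2 ratio of wild type 1 to wild type 2 was 0.15, and in the 10% with the highest (61.4% to 76.8%) it was -0.39, and it was lower in every class than in the one before. In that last class 8.86% of genes were more than 2-fold higher in wild type 2 and 0.503% in wild type 1. The same slope was present between hemizygous 1 and 2, with medians of 0.10 and -0.43, and was less steep between homozygous 1 and 2, with -0.01 and -0.12. With the median of each class removed, an adjustment added after the data were seen, 738 genes differed over 2-fold, against 900 of the same 15913 before. The genes named as higher in wild type 1 had a median GC of 46.5% and those higher in wild type 2 of 56.5%, against 48.1% for all genes. The part of GC in the ratio of any 1 gene was not tested.

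**Figure D5:**
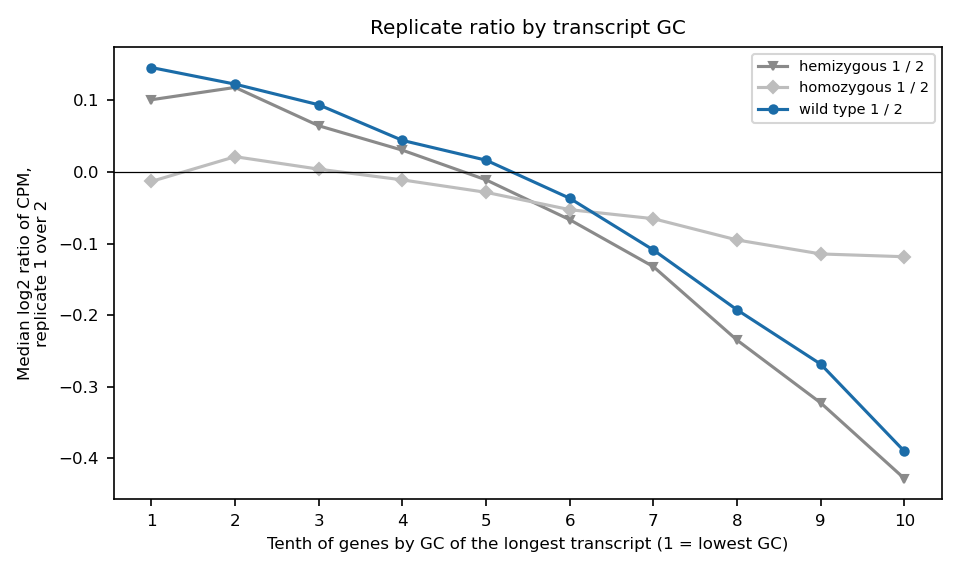
Median log2 ratio of CPM of replicate 1 over replicate 2 in each of 10 equal classes of genes by transcript GC, from lowest (1) to highest (10), for hemizygous (dark grey), homozygous (light grey) and wild-type (blue) libraries. The wild-type line falls to -0.39 in the highest class.

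Few or no genes were called between edited and wild-type cells, depending on the tool. With 2 libraries per genotype, a gene that was not called was not shown to be unchanged. The fit in edgeR compared the mean of hemizygous and homozygous with wild type over all 6 libraries, and 0 of 16199 genes passed an adjusted p of 0.05 (0%, with 314 at an unadjusted p under 0.05). With replicate number added to the edgeR fit as a block, 0 passed as well, with 1209 at an unadjusted p under 0.05. The lowest edgeR adjusted p was 0.911 without the block and 0.0897 with it. DESeq2 called 10 (0.0617%), 4 higher and 6 lower in edited cells. In simulated data for this comparison, run on 16199 genes, edgeR recovered 64% of genes changed 2-fold and 99% of those changed 4-fold, with 11 false calls among the unchanged genes. The simulated spread followed the fitted trend alone, with no shift by replicate number or GC, and every changed gene averaged over 1 CPM. The real libraries hold such shifts, so these shares do not give the power behind the calls in the real data. DICER1 was at 114 and 98.5 CPM in hemizygous, 127 and 121 in homozygous and 166 and 129 in wild-type libraries, with both wild-type values above the other 4. Its log2 fold change, edited over wild type, was -0.36 ± 0.16 (SE; edgeR adjusted p = 1.00), and it was -0.12 without wild type 1 and -0.54 without wild type 2. A gene count cannot see a single changed base, so it does not check the genotype. LIN28A was at 2042 and 2298 CPM in hemizygous, 2432 and 2059 in homozygous and 1594 and 2173 in wild-type libraries, and the ranges overlapped. SOX2 was at 341 and 428 CPM in hemizygous, 368 and 423 in homozygous and 334 and 388 in wild-type libraries. NANOG was at 189.7 and 186 CPM in hemizygous, 155 and 189.7 in homozygous and 194 and 146 in wild-type libraries. DNMT3B was at 2859 and 2378 CPM in hemizygous, 2178 and 2375 in homozygous and 2403 and 2209 in wild-type libraries. The edited and wild-type ranges of these 3 genes overlapped. POU5F1 was at 81.5 and 131 CPM in hemizygous, 105 and 132 in homozygous and 86.2 and 90.1 in wild-type libraries, and hemizygous 1 lay below both wild-type values. The log2 fold changes of the 5 markers lay between 0.08 (NANOG, ± 0.16 SE) and 0.35 (POU5F1, ± 0.19 SE), each with an edgeR adjusted p of 1.00.

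The 10 DESeq2 calls were ASMTL, FGF4, NOMO1 and ZIC1, higher in edited cells, and ENSG00000253507, FBL, HTR7, MIR4458HG, MOAP1 and NDUFS1, lower. They were named after their values were seen. HTR7, a serotonin receptor gene, was at 8.94 and 13.8 CPM in hemizygous, 7.89 and 9.23 in homozygous and 25 and 26.3 in wild-type libraries, so that wild type was above all 4. FGF4 was at 23.2 and 25.6 CPM in hemizygous, 29.7 and 29 in homozygous and 17.1 and 17.4 in wild-type libraries, with no overlap. ASMTL was at 11.7 and 17.7 CPM in hemizygous, 0.758 and 0.733 in homozygous and 0.983 and 0.812 in wild-type libraries, so hemizygous alone was high. FBL was at 3.12 and 21.1 CPM in wild type 1 and 2, so its call rests on wild type 2 alone. The remaining calls are named without their values.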

How the data were processed

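RNA was sequenced from 6 samples of H1 human embryonic stem cells, 2 per genotype. Per the labels' protocols, libraries were made with the TruSeq RNA Library Prep Kit v2. The authors deposited raw counts per gene in 1 table. Per the submitters' processing notes, cutadapt and HISAT2 were used with build hg38; which gene counter and annotation were used is not given in the sources used here. CPM were computed on each library's listed total, and levels as CPM per kb of the union of exons of GENCODE release 29, for 15913 of 16199 genes. Genes were matched by symbol for 14864, by Ensembl ID for 985 and by release symbol for 64. Exons shared with another gene were noted, above 30% as uncertain. Promoter sequences came from RefSeq, GRCh38.p14.

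Edited and wild-type cells were compared in edgeR 4.0.16 (R 4.3.3; TMM, quasi-likelihood test, Benjamini-Hochberg adjusted p under 0.05), tested on simulated data, with DESeq2 1.42.0 as an alternative; filterByExpr removed 0 genes. Wild-type libraries were compared without a test. Other settings were gene length, thresholds, scaling and left-out libraries. Members, lists and families were chosen with earlier results of these data known. Named were the markers, the 20 highest genes, leading and lowest list members, family leaders, and the 8 genes with the largest ratio in each direction; others were named after their values were seen. Deviations of same-numbered samples correlated across genes (r = 0.741 for hemizygous with wild type, 0.357 for homozygous with wild type and 0.476 between the edited genotypes); with 2 numbers per genotype and no label for what they mark, this is a hint from the data. Results for a few genes are not reported here.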

Additional observations from a re-analysis of the deposited data

How the results depend on the processing

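The comparison of edited with wild-type cells called 0 genes in edgeR, also with RLE size factors and with no filter. With the replicate block it called 0 (1209 at an unadjusted p under 0.05), and leaving out 1 library gave 0 to 2 calls. The 2 calls, CHORDC1 and EEF1B2, came without wild type 1, and 1 call, ZNF560, without hemizygous 2. DESeq2 called 10, and the cause was not tested. The log2 fold change of NANOG, edited over wild type, lay between -0.13 and 0.34 when 1 library was left out, and it was -0.13 without wild type 2. Leaving out 1 library gave -0.54 to -0.12 for DICER1, 0.07 to 0.45 for LIN28A, 0.05 to 0.20 for SOX2, 0.18 to 0.50 for POU5F1 and 0.00 to 0.19 for DNMT3B. Genes over 2-fold apart between the wild-type libraries numbered 938, 880 with TMM, 710 at a mean of at least 1 CPM and 141 at a mean of at least 10 CPM, where fewer genes enter. List members at the threshold numbered 67, 117 at a level of 1, 33 at 30 and 69 to 71 in 1 library alone. The genes holding 50% of counts numbered 939 to 953 in 1 library alone and 1140 without the mitochondrial genome. The same family member led in 43 to 49 of 52 families under other lengths and scaling. With 2 libraries, and genes under 1 CPM over 2-fold apart in 19.7%, low levels are the least firm.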
